A study of Danio rerio with 2 samples.

Results

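The cathepsins are the principal proteases of the lysosome, and 10 zebrafish cathepsin genes were followed here in RNA-seq of a salvianolate-treated and a wild-type library. The members were taken by their Ensembl IDs from the 26597 genes of the deposited table. They are cathepsins A, B, C, D, F, H and K (CTSA, CTSB, CTSC, CTSD, ctsf, CTSH and CTSK), ctsla, ctss2.1 and ctss2.2, spelled as in the table that pairs IDs with names, which writes many zebrafish genes in capitals. The treated group was 1 library titled as zebrafish embryos given salvianolate, which is an extract of the medicinal plant Salvia miltiorrhiza rich in salvianolic acids. The control group was 1 library labelled WT. The labels name cardiac tissue and total RNA for both, and put the treatment in the genotype field. The dose, the duration, the age and strain of the animals and how many were pooled are not stated in the labels. Per the file headers, the count columns are also called DSDF (treated) and AB72h (wild type), names that the labels do not explain. The stated aim concerns protection from cardiotoxicity, and the design text names the lysosome among the pathways found in these libraries, so the choice of lysosomal genes is not independent of the data.

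Cathepsins are made as inactive precursors, carried to the lysosome largely by receptors for mannose 6-phosphate, and activated there by cleavage at acid pH. Most are cysteine proteases of the papain family. Cathepsin D is an aspartic protease and cathepsin A a serine carboxypeptidase. They complete the breakdown of proteins delivered by endocytosis and autophagy, and some have further work, such as the digestion of bone collagen by cathepsin K or the trimming of the invariant chain of MHC class II by cathepsin S in mammals. In fish embryos, proteases of this family also take part in the use of yolk proteins.

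The treated library held 19295524 and the wild-type library 19531764 estimated counts after rounding, and 3 counts corresponded to 0.152 and 0.157 CPM (counts scaled to library size). With 1 library per group no difference has a replicate check and no test between conditions was possible. The 95% intervals below cover counting error only. Heart genes were a small part of both libraries: 15 genes matched to a heart marker list summed to 131 CPM in treated and 146 CPM in wild type, with 1 copy named TNNI1 at 0 counts in the treated library. Skin markers (12 genes) summed to 12351 and 16614 CPM, and eye markers (18 genes) to 2658 and 1343 CPM, in treated and wild type. Markers of skin and eye thus stood far above those of the labelled heart tissue, and in such RNA fewer cells of a type and less RNA per cell cannot be told apart. The design text gives more genes down than up in the treated group. By a fold of 2 with an interval that excluded a ratio of 1, the split here ran the other way, with 533 genes higher and 143 lower. By the interval alone it was near even, with 3459 higher and 3440 lower. With upper-quartile scaling, the interval gave more genes lower, 3245 higher and 3786 lower. The rule of the design text was not matched here, so the splits may not be comparable. Every direction follows the library labels, and whether they are exchanged is not known.

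All 10 cathepsins were above 1 CPM in both libraries, and none differed 2-fold. Ratios of treated over wild type lay between -0.64 for CTSA and 0.14 for ctsf on the log2 scale, and their median was -0.24, beside -0.002 over the 19829 genes that reached 1 CPM in either library. At a fold of at least 2 with an interval that excluded a ratio of 1, 0 of 10 cathepsins were counted, beside 3.41% of all genes (2.69% higher and 0.721% lower). An interval that excluded 1, at any fold, was met by 7 of 10 cathepsins, beside 34.8% of all genes. Of these, CTSA, CTSB, CTSD, CTSH and ctss2.1 were lower, against a background of 17.3% lower, and ctsf and ctsla higher, against 17.4% higher. Among the 14219 genes with at least 89 counts in both libraries, the least that any cathepsin had, 38.7% met the interval rule. Of that set, 21.3% were lower and 17.4% higher, and 0.717% met the fold rule (0.57% higher and 0.148% lower). Intervals narrow as counts rise, and neither background was matched to members with far more counts, such as ctsla with 15825 and 14979. The 7 of 10 therefore cannot be read as an excess of the family. With libraries scaled by total count instead, the interval rule gave 4665 genes higher and 2270 lower in place of 3459 and 3440, and of the cathepsins 2 higher and 4 lower. Upper-quartile scaling moved the split the other way, to 3245 genes higher and 3786 lower, and of the cathepsins 1 higher and 5 lower.

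**Figure D1:**
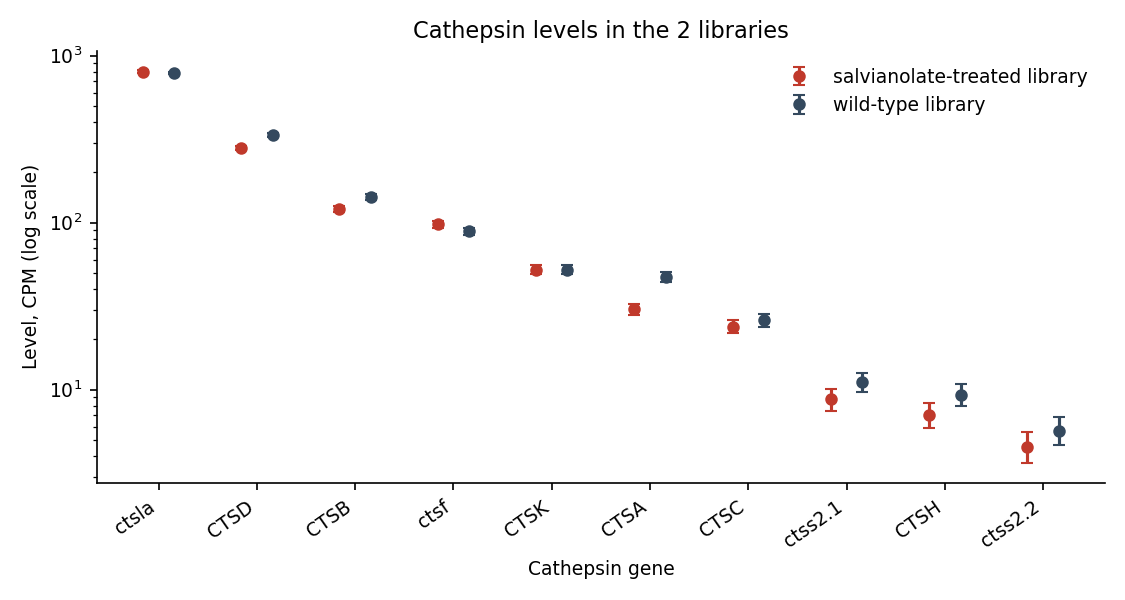
Level of each cathepsin in CPM on a log axis, in the salvianolate-treated library (red, left of each pair) and the wild-type library (dark, right). Points are 1 library each and bars the exact 95% Poisson counting interval. The genes span from 803 and 784 CPM for ctsla to 4.51 and 5.65 CPM for ctss2.2. The bars of a pair do not overlap for CTSA, CTSB, CTSD and, narrowly, ctsf, and the points stand furthest apart for CTSA.

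Together the 10 genes took 1428 CPM in the treated and 1499 CPM in the wild-type library, a ratio of 0.952 (95% interval 0.937 to 0.968). With total count scaling the ratio was 0.995 (0.978 to 1.01), which included 1. The sum was carried by 1 gene. The cathepsin L gene ctsla supplied 56.2% (exact interval 55.6 to 56.8) of the cathepsin counts in treated and 52.3% (51.7 to 52.9) in wild type. Without ctsla the other genes summed to 625 CPM in treated and 716 CPM in wild type, a ratio of 0.874 (0.853 to 0.896). The 8 cysteine proteases summed to 1117 and 1119 CPM, a ratio of 0.999 (0.980 to 1.02). Without ctsla the other cysteine proteases summed to 315 CPM in treated and 335 CPM in wild type, a ratio of 0.939 (0.907 to 0.972). The ratios of these subsets also depend on the scaling. By share of all counts, the 8 cysteine proteases took 0.114% in treated and 0.110% in wild type. Without ctsla the other cysteine proteases took 0.0322% and 0.0328%, and the other 9 cathepsins 0.0639% and 0.0700%. No interval was computed for these shares.

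Levels between genes were compared per length, on the deposited FPKM scale. In both libraries the order began with ctsla, CTSD, CTSB, ctsf, CTSK and CTSA, and ended with CTSH and ctss2.2. Between them, CTSC stood at 7.73 FPKM and ctss2.1 at 7.26 FPKM in treated, while in wild type ctss2.1 stood at 8.80 FPKM and CTSC at 8.09 FPKM, so their order differed between libraries, by factors of 1.06 and 1.09. A value per gene from 1 library has no spread, and such close neighbours were not resolved. The step from ctsla to CTSD was the widest in the treated library at 3.37-fold; in wild type it was 2.77-fold, close to the 2.79-fold step from CTSB to ctsf. The level of ctsla was higher than that of 99.0% of genes above 1 CPM in both libraries, whereas ctss2.2 exceeded 34.8% of genes in treated and 46.0% in wild type.

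Cathepsin D, the aspartic endoprotease that starts the breakdown of many proteins in the lysosome, was the second most abundant. CTSD (ENSDARG00000057698) stood at 280 CPM and 161 FPKM in treated and at 333 CPM and 183 FPKM in wild type. Its log2 ratio was -0.25 (-0.30 to -0.20), with 15.7% of genes at a lower ratio and 37.0% at least as far from 1. Its share of the cathepsin counts was 19.6% (19.2 to 20.1) in treated and 22.2% (21.7 to 22.7) in wild type.

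Cathepsin A, also called protective protein, is a carboxypeptidase that in mammals holds beta-galactosidase and the neuraminidase NEU1 in a lysosomal complex. CTSA (ENSDARG00000098114) stood at 30.2 CPM and 15.2 FPKM in treated, against 47.1 CPM and 22.8 FPKM in wild type. This was the lowest ratio of the family, 0.640 (0.576 to 0.711), a log2 ratio of -0.64 (-0.80 to -0.49). Of all genes, 2.75% had a lower ratio and 8.97% were at least as far from 1 in either direction. At a fold of 1.5 with the interval CTSA was the 1 cathepsin counted, beside 8.71% of all genes by that rule. Its interval did not overlap those of CTSB, CTSC, CTSD, ctsf, CTSK or ctsla, and overlapped those of CTSH, ctss2.1 and ctss2.2, which had fewer counts. The partner genes, looked up after the value of CTSA was seen, were NEU1 at 20.4 CPM in treated and 26.1 CPM in wild type, a log2 ratio of -0.35 (-0.55 to -0.16), and GLB1 at 11.6 and 12.5 CPM, -0.10 (-0.37 to 0.17).

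Cathepsin L is a broad cysteine endoprotease. The gene ctsla (ENSDARG00000007836) stood at 803 CPM and 540 FPKM in treated and at 784 CPM and 505 FPKM in wild type. Its 15825 and 14979 counts gave a narrow interval, with a log2 ratio of 0.03 (0.002 to 0.07), a fold of 1.02. Of all genes, 89.4% were at least as far from a ratio of 1. The interval excluded 1 under TMM, total count and median-of-ratios scaling but included it under upper-quartile scaling.

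Cathepsin B, which cleaves both within proteins and from their carboxyl end, was lower. CTSB (ENSDARG00000055120) stood at 121 CPM and 86.5 FPKM in treated, against 143 CPM and 97.9 FPKM in wild type. The log2 ratio was -0.24 (-0.32 to -0.16), close to that of CTSD, and 16.7% of genes had a lower one. In either direction, 38.9% of genes were at least as far from 1.

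Cathepsin F is a cysteine protease with an unusually long propeptide. Its gene ctsf (ENSDARG00000063095) was higher, at 97.6 CPM and 40.6 FPKM in treated and 88.5 CPM and 35.1 FPKM in wild type. The log2 ratio was 0.14 (0.05 to 0.24), and 58.7% of genes were at least as far from 1. It was the 1 member whose estimated counts, 1925.48 and 1690.77, were not whole. In the RefSeq table of another assembly (GRCz12tu) it overlaps the gene trpt1 and a long non-coding RNA, so its value may hold shared reads; trpt1 itself stood at 8.72 CPM in treated and 9.10 CPM in wild type.

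Cathepsin K, the collagen-degrading enzyme of mammalian osteoclasts, and both cathepsin S genes are consecutive protein-coding genes in the same RefSeq table, in the order ctsk, ctss2.1, ctss2.2. CTSK (ENSDARG00000040251) stood at 52.2 CPM in both libraries (1030 counts in treated, 998 in wild type) and at 32.6 FPKM in treated and 31.2 FPKM in wild type. Its log2 ratio was 0.0004 (-0.13 to 0.13), and with upper-quartile scaling it was -0.01. The cathepsin S gene ctss2.1 (ENSDARG00000074656) stood at 8.72 CPM (172 counts) in treated and 11.0 CPM (211 counts) in wild type, a log2 ratio of -0.34 (-0.64 to -0.04). Under total count scaling the interval of ctss2.1 included 1. Its neighbour ctss2.2 (ENSDARG00000013771) had the fewest counts of the family, 89 in treated and 108 in wild type, that is 4.51 and 5.65 CPM. The ratio of ctss2.2, -0.32 (-0.75 to 0.09), was like that of ctss2.1 in size, but a difference was not detectable at this depth. On the FPKM scale ctss2.2 stood at 3.64 in treated and 5.04 in wild type, a fold of 0.722, where counts gave 0.800. Both genes had whole counts; how reads shared by such copies were assigned is not stated in the labels.

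Cathepsins C and H were among the less abundant members. Cathepsin C removes dipeptides and activates serine proteases of leukocyte granules in mammals. CTSC (ENSDARG00000101334) stood at 23.8 CPM in treated and 26.0 CPM in wild type, a log2 ratio of -0.13 (-0.31 to 0.06), which was not a detectable difference. Cathepsin H is an aminopeptidase. CTSH (ENSDARG00000041108) stood at 6.998 CPM and 5.21 FPKM in treated, against 9.31 CPM and 6.63 FPKM in wild type. From 138 and 178 counts its log2 ratio was -0.41 (-0.74 to -0.08), the second lowest of the family. Of all genes, 6.93% had a lower ratio and 19.4% were at least as far from 1 in either direction. Of the 45 pairs of cathepsins, 29 had ratio intervals that overlapped.

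**Figure D2:**
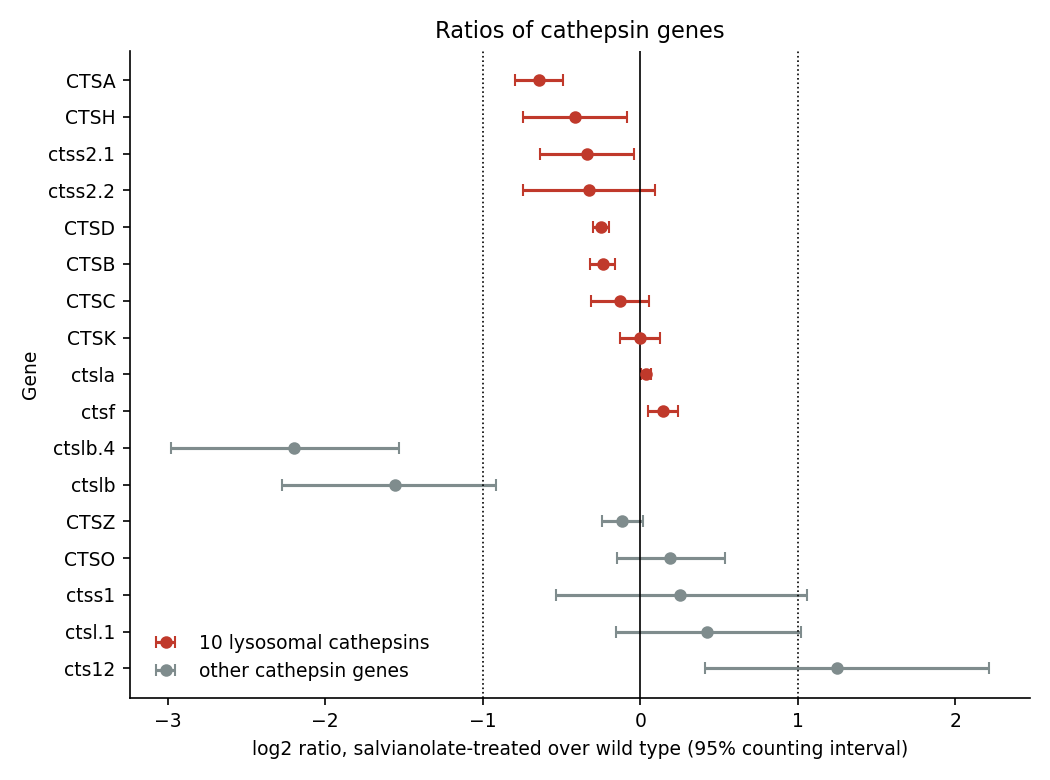
Log2 ratio of treated over wild type for the 10 lysosomal cathepsins (red) and 7 other cathepsin genes above 1 CPM (grey), with the 95% counting interval; dotted lines mark a fold of 2. The red points lie between -0.64 and 0.14, inside the dotted lines, while ctslb, ctslb.4 and cts12 lie outside them at low counts.

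Other cathepsin genes stood lower than the most abundant members and spread further. Of 9 genes matched to a list of them, 6 were above 1 CPM; their median log2 ratio was 0.22, with 1 gene, cts12, higher and 1, ctslb, lower by the fold rule. CTSZ, a carboxypeptidase gene, was the most abundant at 46.1 CPM in treated and 49.9 CPM in wild type, a ratio of -0.11 (-0.25 to 0.02). CTSO stood at 8.01 CPM in treated and 7.01 CPM in wild type, 0.19 (-0.15 to 0.54), ctss1 at 1.62 and 1.36 CPM, 0.25 (-0.54 to 1.06), and ctsl.1 at 3.09 and 2.30 CPM, 0.42 (-0.16 to 1.02). The intervals of these 4 genes included a ratio of 1. The gene cts12 stood at 2.03 CPM in treated and 0.837 CPM in wild type, a ratio of 1.25 (0.41 to 2.21) from 40 and 16 counts, and passed the floor through the treated library alone. The second cathepsin L gene ctslb, known as a hatching gland gene, stood at 1.32 CPM in treated and 3.92 CPM in wild type, -1.56 (-2.28 to -0.91). A related gene, ctslb.4, was outside the list and was looked up after the values were seen. It stood at 1.06 CPM in treated and 4.97 CPM in wild type, -2.20 (-2.98 to -1.53). The estimated counts were not whole for ctslb (25.97 in treated, 75.19 in wild type) or ctslb.4 (20.82 and 94.92). Both values may hold shared reads. Of 9 hatching gland markers, 8 were above 1 CPM, with 3 at least 2-fold lower, 5 with an interval below 1 and none above. The median was -0.23, and -2.04 over the 4 with exact symbols. This list holds ctslb itself, which is counted among those 3, those 5 and those 4. The list summed to 358 CPM in treated and 411 CPM in wild type, most of it from genes such as XBP1 that other tissues use. The hatching enzyme gene he1.1 stood at 6.19 CPM in treated and 37.5 CPM in wild type, he1.3 was at 0 counts in treated and 1 in wild type, and AGR2 had the highest ratio, 0.04 (-0.10 to 0.18). The part of hatching gland content in the values of ctslb and ctslb.4 was not tested.

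**Figure D3:**
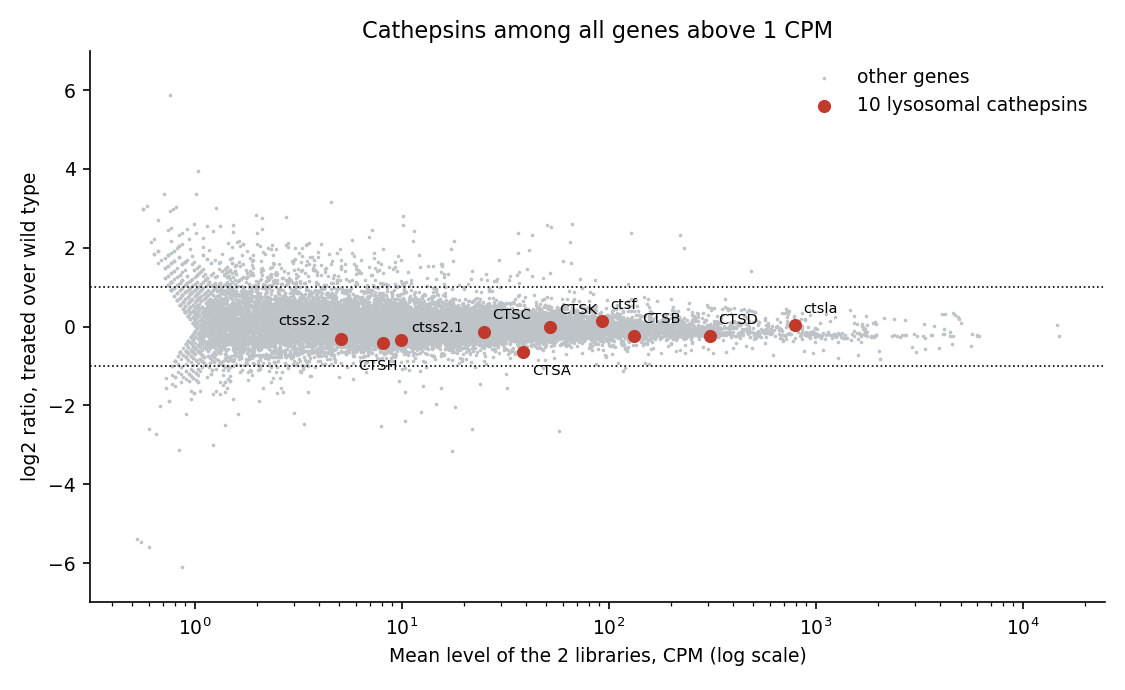
Log2 ratio of treated over wild type against the mean level of both libraries in CPM (log axis) for the 19829 genes that reached 1 CPM (grey) and the 10 cathepsins (red, named). Dotted lines mark a fold of 2; the cathepsins lie among the other genes of their level, with CTSA at -0.64 the lowest.

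Genes of the cystatin superfamily, which includes cathepsin inhibitors but also other proteins, did not differ by a fold of 2 above 1 CPM. Of 9 genes of the cystatin superfamily matched, 7 were above 1 CPM, the interval lay below 1 for 2 and above 1 for none, and the median was -0.05 (0.01 with total count scaling). The secreted inhibitor cystatin C gene cst3 stood at 83.5 CPM in treated and 87.5 CPM in wild type, -0.07 (-0.17 to 0.03). The fetuin gene fetub, listed by family, was the most abundant at 563 and 582 CPM, -0.05 (-0.09 to -0.01). It supplied most of the list sum of 720 CPM in treated and 759 CPM in wild type, and its ratio was the median. The kininogen gene kng1, a plasma protein gene, stood at 27.6 CPM in treated and 43.1 CPM in wild type, -0.64 (-0.80 to -0.48). The genes cst14a.1, cst14a.2, cst14b.1 and ahsg1 had ratios of 0.10, -0.02, -0.21 and 0.75, each with an interval that included 1. Yolk syncytial layer and liver markers are set beside kng1: of 13 genes, 10 were above 1 CPM, 7 with an interval below 1 and 3 above, and they summed to 11059 CPM in treated and 12808 CPM in wild type. Of these, apoa1b was the most abundant at 5519 and 6437 CPM, vtg7 had the lowest ratio, -0.91, and fabp10a the highest, 1.69. The part of such tissue content was not tested.

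Genes listed for lysosomal sorting and activation, not all of which act on cathepsins, were near the background in their median and in their numbers by interval. Of 19 genes of sorting and activation, 4 had an interval below 1 and 3 above (3 below and 6 above with total count scaling), none at a fold of 2, and the median was 0.007 (-0.008 with upper-quartile scaling). Their sum was 1121 CPM in treated and 1231 CPM in wild type, a ratio of 0.910 (0.893 to 0.927). PSAP, the precursor of the saposins that assist sphingolipid breakdown, was the most abundant at 355 CPM in treated and 472 CPM in wild type, a log2 ratio of -0.41 (-0.46 to -0.37). The progranulin gene grna, at 3.70 CPM in treated and 5.55 CPM in wild type, had the lowest ratio, -0.58 (-1.03 to -0.14), and gnptg, a subunit gene of the enzyme that makes the mannose 6-phosphate mark, the highest, 0.32 (0.05 to 0.59). The receptor genes of that mark, M6PR and IGF2R, and NAGPA, another gene of the same mark, were picked for their role after values were seen. M6PR and IGF2R stood at 12.4 and 36.0 CPM in treated and at 12.5 and 35.8 CPM in wild type. NAGPA was lower, at 14.3 CPM in treated and 20.4 CPM in wild type, -0.52 (-0.74 to -0.29). Of 12 genes of lysosomal gene regulators, 1 was higher and 1 lower by interval, with a median of -0.12. MTOR, the most abundant, stood at 108 CPM in treated and 113 CPM in wild type, -0.07 (-0.15 to 0.02). A gene named MITF had the lowest ratio, -0.54 (-1.16 to 0.06), and ppp3ca the highest, 0.23 (0.12 to 0.35). TFEB, a transcription factor that turns on lysosomal genes, was looked up for its role at 4.56 CPM in treated and 4.92 CPM in wild type, -0.11 (-0.54 to 0.33).

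Other lysosomal proteases and hydrolases had more genes lower than higher by the interval, and in both the peptidase and the hydrolase list 1 gene passed a fold of 2. Of 8 other peptidases listed, 4 were lower and 2 higher, with a median of -0.18. Legumain (LGMN), which can process cathepsin precursors, was the most abundant at 121 CPM in treated and 127 CPM in wild type, -0.07 (-0.15 to 0.01). The tripeptidyl peptidase gene TPP1 had the lowest ratio, -0.36 (-0.53 to -0.19), from 27.2 CPM in treated and 34.95 CPM in wild type. The highest was naaladl1, at 3.75 CPM in treated and 1.05 CPM in wild type, 1.82 (1.11 to 2.63), which in mammals is a peptidase of the intestinal brush border rather than of the lysosome. Of 40 genes of glycosidases, sulfatases and lipid hydrolases above 1 CPM, 13 were lower and 0 higher by interval (12 and 1 with total count scaling). Of all genes, 17.3% were lower and 17.4% higher, and 21.3% were lower among those with at least 89 counts in both libraries. In this list 1 gene was at least 2-fold lower, and the median was -0.11. NAGPA, 1 of the 13, is also counted among the lower genes of sorting and activation. PLA2G15 was the most abundant at 273 CPM in treated and 274 CPM in wild type, and a gene named GAA had the highest ratio, 0.42 (-0.34 to 1.21). The acid phosphatase gene ACP5 had the lowest, at 7.76 CPM in treated and 23.1 CPM in wild type, -1.57 (-1.85 to -1.30). Of 16 lysosomal membrane genes, 5 were lower and 3 higher (3 and 3 with total count scaling), with a median of -0.12. Their most abundant gene, the cholesterol transporter gene NPC1, stood at 156 CPM in treated and 181 CPM in wild type, -0.22 (-0.29 to -0.15); slc11a2 had -0.36 and LAPTM4B 0.40. The vacuolar proton pump, which acidifies the lysosome, had more genes higher: of 24 subunit genes, 10 were higher and 3 lower by interval, none at a fold of 2, with a median of 0.10. With total count scaling 14 were higher and 2 lower, and with upper-quartile scaling 9 and 4. With exact symbols, which also drops names written in capitals, 5 of these genes entered, 2 higher and 1 lower, and the median was -0.13. A gene named ATP6V0A1 had 0.50 (0.39 to 0.60), a gene named TCIRG1 -0.43 (-0.58 to -0.28), and the most abundant, a gene named ATP6V0C, stood at 319 CPM in treated and 345 CPM in wild type.

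**Figure D4:**
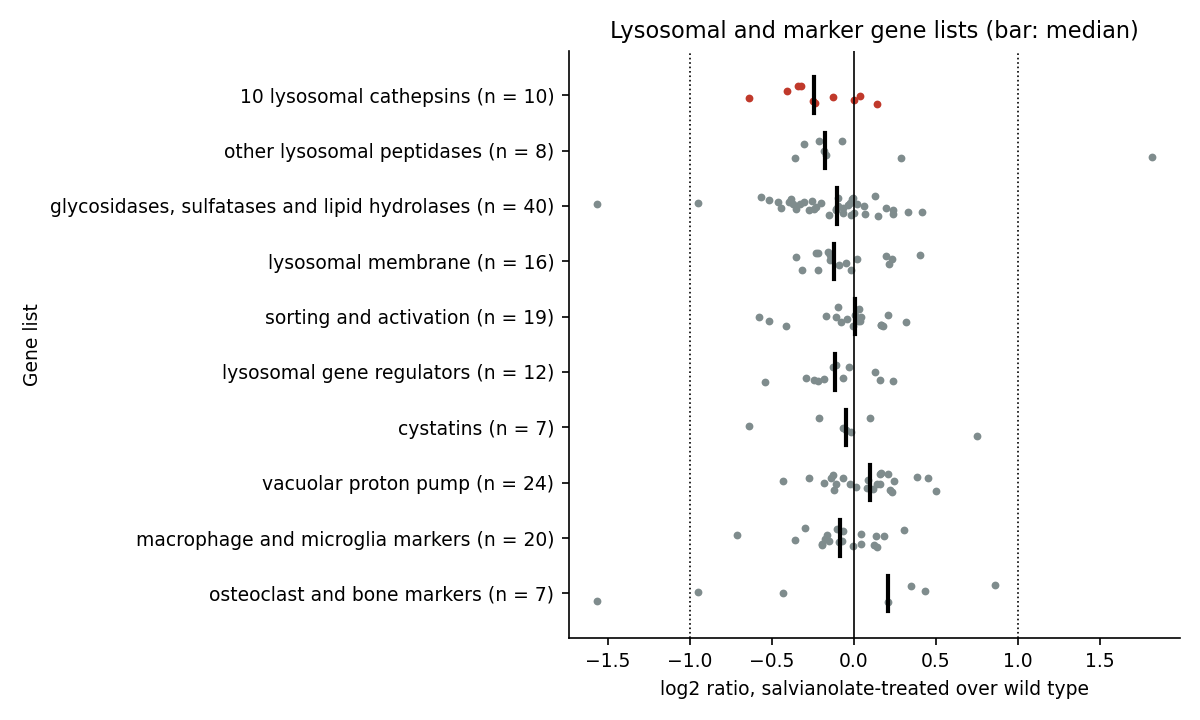
Log2 ratio of treated over wild type for each gene above 1 CPM of the cathepsins (red) and of 9 other gene lists (grey), with a black bar at the median and dotted lines at a fold of 2. The median was -0.24 for the cathepsins, between -0.18 and 0.01 for the other lysosomal lists and the cystatins except the proton pump at 0.10, and -0.08 and 0.21 for the macrophage and the osteoclast and bone lists.

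Several cathepsins are abundant in phagocytes and in bone-resorbing cells of mammals, and the markers of these cells were set beside them. Of 30 genes matched to macrophage and microglia markers, 20 were above 1 CPM, 2 had an interval below 1 and none above, and the median was -0.08. They summed to 154 CPM in treated and 167 CPM in wild type, a ratio of 0.921 (0.876 to 0.969). By share of all counts they took 0.0157% in treated and 0.0163% in wild type, for which no interval was computed. LCP1 was the most abundant at 31.9 and 33.6 CPM. The highest and the lowest ratio both belonged to copies named MFAP4, 0.30 (-0.03 to 0.65) and -0.71 (-1.21 to -0.23). In treated, 3 copies named MFAP4 or MPEG1 were at 0 counts, against 1 or 2 counts in wild type. Neutrophil markers (7 genes, 5 above 1 CPM) summed to 62.6 CPM in treated and 62.5 CPM in wild type, with a median of -0.04 (0.02 with total count scaling); lyz stood at 36.9 and 38.2 CPM, mmp13a had 0.87 (0.22 to 1.57), CSF3R had -0.19 (-0.86 to 0.48), and 2 copies of cxcr1 had 4 and 3 counts in treated and 0 in wild type. Osteoclast and bone markers went both ways: of 10 genes, 7 were above 1 CPM, 2 higher and 3 lower by interval. The median was 0.21 (-0.05 over the 2 genes with exact symbols), and the sum 302 CPM in treated and 267 CPM in wild type. The 3 lower genes are not separate from the lysosomal lists. ACP5 and acp5b are also counted as lower among the hydrolases, and a gene named TCIRG1 as lower in the proton pump. A gene named COL10A1, of hypertrophic cartilage, was the most abundant at 233 CPM in treated and 173 CPM in wild type, most of the sum. The highest ratio was that of spp1, 0.86 (0.31 to 1.44), and the lowest that of ACP5, the osteoclast acid phosphatase. CTSK, which marks osteoclasts in mammals, had its ratio of 0.0004 beside these. The part of these cells in the cathepsin values was not tested.

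Eye, exocrine pancreas and erythroid markers had medians further from 0 than the cathepsins, as did yolk syncytial layer and liver markers at -0.30. Skin and heart markers did not, at -0.19 and -0.23, the latter close to the -0.24 of the cathepsins. By sum, skin markers were further from a ratio of 1, at 0.743 (0.739 to 0.747), than the cathepsins at 0.952 (0.937 to 0.968). The heart sum had a ratio of 0.898 (0.851 to 0.948), an interval that overlapped that of the cathepsins. Of 18 eye genes, 16 were above 1 CPM, 12 were higher and none lower by the fold rule, with a median of 2.17, with opn1mw1 at the highest ratio, 2.60, and with the lens gene crybb1l2 the most abundant at 1246 CPM in treated and 1006 CPM in wild type. All 14 exocrine pancreas genes matched summed to 167 CPM in treated and 62.4 CPM in wild type. Of the 13 above 1 CPM, 11 were higher and none lower by the fold rule, with a median of 1.40. Their ratios ran from 0.04 for amy2al1 to 2.11 for ctrl, and prss59.2 was the most abundant at 57.3 and 15.6 CPM. Of 11 erythroid genes, 8 had an interval below 1 and none above, with a median of -0.58 and a sum of 3012 CPM in treated and 4687 CPM in wild type, from hbbe3 at -2.64 to FECH at -0.24, with hbae3 the most abundant at 2703 and 4029 CPM. Of 12 skin genes, 8 were lower and 2 higher by interval, with a median of -0.19, from cyt1l at -0.63 to krt92 at 0.71, and krt4 the most abundant at 4650 and 6570 CPM. Of 13 heart genes above 1 CPM, 6 were lower and 1 higher by interval, with a median of -0.23, from nppa at -0.89 to a gene named MYH6 at 0.38, which was also the most abundant at 39.1 and 30.0 CPM. The part of these tissues in the cathepsin ratios was not tested.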

How the data were processed

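Per the file headers, the deposited table holds estimated counts (expected counts) and FPKM for both libraries. The authors' estimated counts are not normalised, and 10.4% of values in the treated and 10.3% in the wild-type library were not whole; they were rounded. The single-library files held the same 26597 counts. The submitters' processing notes name the build danRer11 and, with no role, StringTie 1.3.1, HISAT2, Bowtie2 2.2.8, fastp 0.18.0, edgeR and DESeq2. No sequence or annotation of that build was used.

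Libraries were scaled with TMM factors (edgeR 4.0.16, R 4.3.3). Log2 ratios of treated over wild type used CPM after adding 0.5 counts. Intervals of ratios are exact 95% Clopper-Pearson counting intervals. Genes under 1 CPM in both libraries were left out, except from the sums of lists, which hold every matched gene. Deposited FPKM served for levels between genes and, plus 0.5, as an alternative. The calculation was checked on simulated counts. Python 3.11.15, scipy 1.17.1 and pandas 2.3.3 were used.

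The members and the 18 gene lists (282 names) were chosen with earlier results of these data known. Names were matched ignoring case, and otherwise without a copy suffix, so that all copies entered. Named were all members, all other cathepsins and cystatins above 1 CPM, and the most abundant, highest and lowest gene of each list; exceptions are stated, and 1 gene is not reported here.

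Alternatives were upper-quartile scaling, total counts, median-of-ratios factors (DESeq2 1.42.0), a prior of 2 counts, FPKM, no floor, a floor of 5 CPM, a fold of 1.5, no interval, leaving out the most abundant member, and exact symbols.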

Additional observations from a re-analysis of the deposited data

How the results depend on the processing

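No paired analysis was possible because there was 1 library per group. The 10 member ratios kept their size within the counting interval in 46 of 50 values under other scalings, another prior and FPKM; CTSD (-0.19) and ctsla (0.10) moved beyond it with total counts and with FPKM. Only the sign of CTSK varied among the members, from -0.01 to 0.06. A fold of 1.5 counted 1 cathepsin, CTSA, in place of 0. The log2 ratio of the summed CPM, -0.07, became -0.0078 with total count scaling and -0.19 without ctsla. The count of intervals excluding 1 was 6 or 7, and the median between -0.26 and -0.18. With exact symbols only, few list names matched: the median was -0.36 over 2 hydrolases, -0.13 over 5 proton pump genes, -0.07 over 4 sorting genes, 1.82 for the 1 peptidase left, 0.34 over 4 other cathepsins, -0.22 over 3 regulators, -2.04 over 4 hatching gland genes and -0.05 over 2 bone genes. This setting also drops names written in capitals. Depth limits ctss2.2, whose interval includes 1 at the fewest counts.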

Other observations

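The protein-coding genes next to each cathepsin in the RefSeq table of GRCz12tu were looked up after the member values were known, by symbol and by gene order alone. A value was found for 13 neighbours of 8 cathepsins, and their log2 ratios ran from -0.48 to 0.90. By the interval, 3 were higher and 3 lower. The lowest was xkr5b beside CTSB, -0.48 (-0.90 to -0.07), and slc6a15 beside CTSD had 0.32 (0.14 to 0.51). Beside ctsla, the fructose bisphosphatase gene fbp2 stood at 29.7 CPM in treated and 15.9 CPM in wild type, 0.90 (0.70 to 1.11), while dapk1 on its other side had -0.07 (-0.21 to 0.08). Beside CTSH, rasgrf1, a neuronal exchange factor gene, stood at 12.7 CPM in treated and 7.12 CPM in wild type, 0.83 (0.53 to 1.14), and blm had -0.25 (-0.50 to -0.02). Beside CTSA, pltp stood at 17.0 CPM in treated and 14.5 CPM in wild type, 0.23 (-0.0003 to 0.47), an interval that included a ratio of 1. On the other side of CTSA, ncoa5 had -0.13 (-0.22 to -0.04).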
